A study of Mus musculus with 2 samples.

Results

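G protein-coupled receptors for hormones and local mediators were examined in luminal mammary epithelial cells with high or low activity of the Tbx3 locus. The receptors were chosen by name: a gene belonged to them if its symbol in the platform annotation began with one of a fixed set of receptor stems, such as those of the serotonin, prostaglandin, angiotensin, chemokine, adhesion and numbered GPR receptors. These stems took 159 of the 13869 genes with a value. Of the 159, 9 carry such a symbol but encode no receptor of this superfamily, which left 150 receptors. The mice were 5-month-old virgin mice of an FVB background, heterozygous for a knock-in (Tbx3-Venus-KI) in which the sequence of the Venus fluorescent protein was inserted at the start codon of 1 Tbx3 allele, so both populations come from cells with 1 functional copy of Tbx3. Mammary cells of 3 mice were pooled, dead, CD45+ and stromal cells were gated out, and the luminal fraction was sorted on CD24, CD49f and Venus into 200000 Venus High and 200000 Venus Low cells. RNA with an integrity number above 9.4 was hybridized to Affymetrix GeneChip mouse expression arrays, 1 array per population, so no difference below has a replicate check and no p-value is given.

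G protein-coupled receptors cross the membrane several times and pass a signal from outside the cell to G proteins within it. Receptors coupled to Gs raise cyclic AMP, those coupled to Gi lower it, and those coupled to Gq activate phospholipase C. In the mammary gland such receptors are known for the contraction of myoepithelial cells by oxytocin, for local control of milk secretion by serotonin and for calcium sensing during lactation.

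Values are log2 array signals as deposited, and the lowest value equals a signal of 10, the floor. Where 1 of the arrays was at the floor, the difference is only a lower bound, and where both were, there is none to give. The table used here holds 12968 probe sets that were higher in Venus High cells, 16370 at the floor in both populations and 0 that were lower in Venus High cells. Receptors that were lower in Venus High cells are therefore not analysed here, and every difference below is 0 or above by construction. For a gene with several probe sets, the one with the highest mean is given unless stated. Differences from probe sets of the same gene scattered with a pooled SD of 0.31 on the log2 scale (1062 genes), the only spread these arrays give. It describes probe sets, not animals, and may be too small since it lacks probe sets that fell in Venus High cells. The values of different probe sets are not comparable as levels, so an order of receptors by signal is no order of abundance. Most of the 29338 probe sets of this table were at the floor in each population, so the median over the table is the floor itself. Median centring here therefore used, for each array, the median of brighter probe sets only, those at 100 or more in either population. It lowers every difference by 0.66, so the many differences smaller than this turn negative. Since the table lacks probe sets lower in Venus High cells, this shift and that of quantile normalization may be too large. A negative value after either of them is therefore no sign of a lower level in Venus High cells. Such small differences have no settled direction here.

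Marker genes are described beside the sort. The table holds no probe set lower in Venus High cells, so no marker could go the other way. The markers therefore cannot test the sort or the labels. Tbx3, the locus sorted on, had log2 signals of 8.72 (Venus High) and 3.62 (Venus Low). Of 10 hormone-sensing markers, Tbx3 among them, 7 had a value and reached a signal of 100. All 7 were higher in Venus High cells by 4-fold or more, as were 8.58% of all genes that reached it. Areg, Ly6a and Prlr are not analysed here. Among markers of other cells, 15 of 16 leukocyte genes (Ptprc, Cd3e, Itgam and Lyz2 among them) and 6 of 7 basal genes (Krt14, Acta2 and Trp63 among them) were at the floor in both populations. The summed linear signal of the leukocyte list was 168 and 162 (Venus High first, here and below), and that of the basal list 187 and 163. Of the 9 fibroblast genes with a value, 5 were at the floor in both populations. The endothelial list (6 genes, with Cdh5, Tek and Tie1 at the floor in both populations) summed to 215 and 69.8, with Vwf at 7.26 and 4.31. Of 12 alveolar markers, Stat5a had a value, 9.34 in Venus High against 8.30 in Venus Low cells (2.06-fold), and the others are not analysed here.

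Most receptors with a value gave no signal above the floor. Of the 150, 125 were at the floor in both populations for the probe sets analysed, so 16.7% lay above it, where 51.8% of all genes did. Of these 25, 18 lay above it but below a signal of 100, and 7 reached a signal of 100 on at least 1 array. The 7 are 4.67% of the receptors, where 27.7% of all genes reached this signal. A further 69 protein-coding genes of GRCm38.p6 whose symbols fit the same stems have no value here, among them the receptors for oxytocin (Oxtr), the beta-adrenergic receptors and Ptger4. No statement is made about these. The table lacks probe sets lower in Venus High cells, and any such probe set would lie above the floor in Venus Low cells. The shares in this paragraph, those of all genes included, may therefore be too low. By ligand group, 2 of 19 receptors for amines, 4 of 11 for lipid mediators, 2 of 27 for peptide hormones, 1 of 11 for chemokines, 0 of 9 for nucleotides and adenosine, 6 of 18 adhesion receptors and 8 of 50 numbered receptors lay above the floor on at least 1 array, and these shares were not tested against each other.

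**Figure D1:**
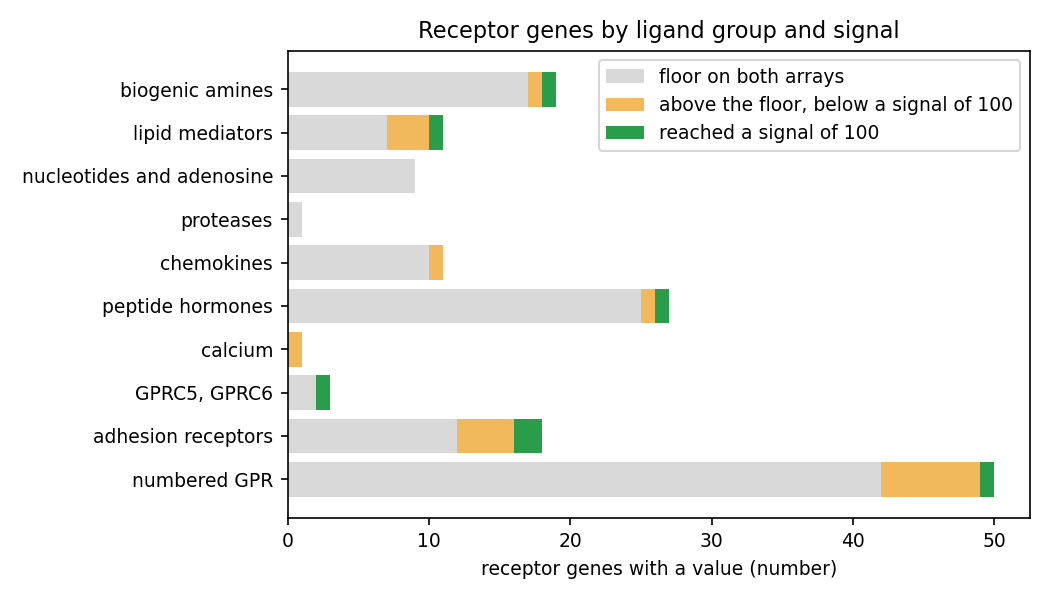
Number of receptor genes with a value (horizontal axis) in each ligand group, split into genes at the floor in both populations (grey), above the floor but below a signal of 100 (orange) and genes that reached a signal of 100 on at least 1 array (green). Grey makes up most of each group of over 3 genes, and the 7 genes in green are spread over 6 groups.

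Of the 7 receptors that reached a signal of 100, 3 were higher in Venus High cells by 4-fold or more: Htr4, Agtr1a and Gpr155. Among all 3847 genes that reached it, 330 were, or 8.58%. At a threshold of 2-fold, Adgre5 was the only addition, giving 4 of 7 receptors against 21.6% of all genes. The median log2 difference of the 7 was 1.93, and that of all 3847 genes 0.46. These 4 receptors lay below a signal of 100 in Venus Low cells and passed the minimum only through the population in which they were high, so the counts and the median describe them and support nothing further. The order of the receptors by difference depends on the floor, and with the floor raised to 100 only Htr4 was still at least 4-fold higher. In cell pools of this kind, a higher signal from more cells that express a gene and one from more RNA per cell cannot be told apart.

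**Figure D2:**
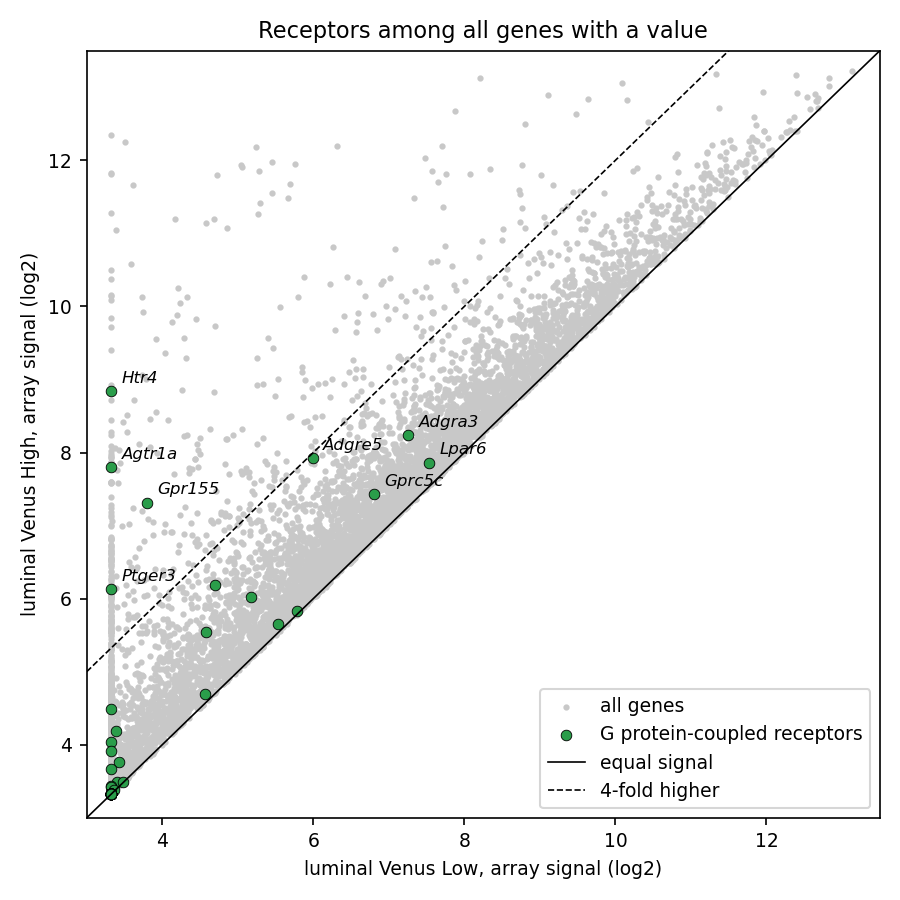
Log2 array signal of each gene in luminal Venus Low (horizontal axis) and luminal Venus High cells (vertical axis), 1 array each, with all genes in grey and the 150 receptors in green. The solid line marks equal signals, below which the table holds no gene, and the dashed line a 4-fold higher signal in Venus High cells. Htr4, Agtr1a, Gpr155 and Ptger3 lie above the dashed line, and 125 receptors share the lower left corner at the floor.

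Promoter sequence is shown for Gpr155 and Ptger3, whose signals were higher in Venus High cells, and for Lpar6, which was measured in both populations without a settled direction. RefSeq promoters of GRCm38.p6 matched 17 of the 25 receptors above the floor, with no entry for Htr4 and Agtr1a. Each sequence below is the 250 bases before the annotated start, 5′ to 3′ on the strand of the gene, with capitals at any match to the motifs searched.
Gpr155: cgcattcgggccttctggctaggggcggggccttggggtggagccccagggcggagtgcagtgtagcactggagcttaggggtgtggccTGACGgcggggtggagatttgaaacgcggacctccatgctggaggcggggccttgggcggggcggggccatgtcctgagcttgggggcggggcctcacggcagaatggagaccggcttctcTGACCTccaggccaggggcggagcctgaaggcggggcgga
Ptger3: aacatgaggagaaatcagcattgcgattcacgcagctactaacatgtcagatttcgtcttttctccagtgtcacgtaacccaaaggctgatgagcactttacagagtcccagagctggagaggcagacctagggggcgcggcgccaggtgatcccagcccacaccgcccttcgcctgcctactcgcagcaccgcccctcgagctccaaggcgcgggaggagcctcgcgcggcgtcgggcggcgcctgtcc
Lpar6: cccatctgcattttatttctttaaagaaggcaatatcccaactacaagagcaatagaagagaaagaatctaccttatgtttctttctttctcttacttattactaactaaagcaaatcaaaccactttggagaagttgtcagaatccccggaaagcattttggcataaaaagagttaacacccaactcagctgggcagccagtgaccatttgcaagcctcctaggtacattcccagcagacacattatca
The Gpr155 window lies at chr2:73386481-73386730 on the minus strand, that of Ptger3 at chr3:157566626-157566875 on the plus strand and that of Lpar6 at chr14:73237641-73237890 on the plus strand. The motifs, searched on both strands, were the T-box core AGGTGTGA, the estrogen receptor core AGGTCA, the progesterone receptor core AGAACA and the cyclic AMP response core TGACG, which is also contained in the full element TGACGTCA. The Gpr155 window held 1 estrogen receptor core and 1 cyclic AMP core, and those of Ptger3 and Lpar6 held none of the motifs. Of the 25 promoters of the 17 receptors, some of which overlap, the T-box core was found in 0, the estrogen receptor core in 3, the progesterone receptor core in 1 and the cyclic AMP core in 6. Among all 32851 promoters these letters occurred in 1.12%, 14.0%, 16.1% and 17.8%. The Gpr155 window was 70.4% G and C, that of Ptger3 62.0% and that of Lpar6 39.2%, where the median of all promoters was 52.4%. A match describes the letters only.

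Htr4 encodes a serotonin receptor that couples to Gs. Its log2 signal was 8.84 in Venus High cells (458 on the linear scale), and it was at the floor in Venus Low cells, a difference of at least 45.8-fold (2.19 log2 units against a floor of 100). This value rests on 1 of its 2 probe sets, since the other was at the floor in both populations, and with the median of the 2 the difference was 2.76 and Htr4 did not reach a signal of 100. The other 10 serotonin receptors with a value, Htr1a, Htr1b, Htr1d, Htr1f, Htr2b, Htr2c, Htr5a, Htr5b, Htr6 and Htr7, were at the floor in both populations, and Htr2a is not analysed here.

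Genes of serotonin synthesis were examined beside the receptor. Tph1, tryptophan hydroxylase, which catalyses the rate-limiting step outside the nervous system, had a log2 signal of 10.14 in Venus High cells and was at the floor in Venus Low cells on its 1 probe set, a difference of at least 113-fold (3.50 log2 units against a floor of 100). Tph2, the form known from neurons, was at the floor in both populations. Ddc, which encodes the enzyme of the following step, was also at the floor in both populations on both of its probe sets. Maoa, which encodes an enzyme that breaks serotonin down, had 8.70 and 8.04, a 1.58-fold difference that is 0.0033 on the log2 scale after median centring and below 0 after quantile normalization. The carrier genes Slc18a1 and Slc18a2, which load amines into vesicles, were at the floor in both populations, and the serotonin transporter gene Slc6a4 is not analysed here. Of 16 genes of amine synthesis and clearance, 12 had a value, 2 reached a signal of 100 and Tph1 alone was at least 4-fold higher. Among all genes that reached it, 8.58% were. Tph1 passed the minimum only through Venus High cells, so the count only describes it.

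Receptors for other amines that had a value stayed at or near the floor. Chrm1, a muscarinic acetylcholine receptor, had 4.70 and 4.57 in Venus High and Venus Low cells on 1 probe set and the floor on another. The other muscarinic receptors with a value (Chrm3 and Chrm4), the dopamine receptors Drd1, Drd3 and Drd4 and the adrenergic receptors Adra1b and Adra2c were at the floor in both populations.

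Agtr1a encodes the main type 1 receptor for angiotensin II in rodents, which couples to Gq. Its log2 signal was 7.80 in Venus High cells (223 on the linear scale) and it was at the floor in Venus Low cells, on 1 probe set, a difference of at least 22.3-fold (1.16 log2 units against a floor of 100, and so below 4-fold). The related genes Agtr1b and Agtr2 were at the floor in both populations. Agtr1a is also known from fibroblasts and smooth muscle. The summed signal of the 9 fibroblast genes was also higher in Venus High cells (153 and 112), with Dcn at 6.01 and 4.89 on the log2 scale and Pdgfrb and Col3a1 at the floor in both populations, and its part in the Agtr1a value was not tested. Acta2 and Myh11, smooth muscle genes of the basal list, were at the floor in both populations. The gene of the ligand precursor, Agt, is not analysed here. Agtrap, which encodes a protein that binds the angiotensin receptor and is not itself such a receptor, was 2.64-fold higher, with 6.80 and 5.40 (0.16 log2 units against a floor of 100), and its other probe set gave a difference of at least 3.15.

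No other peptide hormone receptor with a value came close to a signal of 100. Of 37 receptor genes of this group, 27 had a value, and the rest are not analysed here. Sstr4, a somatostatin receptor, had 3.49 and 3.40. Both genes of the calcitonin receptor family (Calcr and Calcrl), both parathyroid hormone receptors (Pth1r and Pth2r), both VIP receptors, all 3 vasopressin receptors, all 5 neuropeptide Y receptors and the relaxin receptors Rxfp1 and Rxfp2 were at the floor in both populations for the probe sets analysed. Casr, the calcium-sensing receptor, had 3.44 in Venus High cells and the floor in Venus Low cells. Of 30 peptide ligand genes, 19 had a value, 2 reached a signal of 100 and 1, Penk, was at least 4-fold higher. Among all genes that reached it, 8.58% were. Penk, the precursor of enkephalins, had 6.81 in Venus High cells and the floor in Venus Low cells. This difference of at least 11.2-fold shrinks to 0.17 log2 units against a floor of 100. Penk passed the minimum only through Venus High cells, so the count only describes it. Adm, which encodes adrenomedullin, had 7.37 and 7.22, which turns to -0.52 after median centring, and Nmu, neuromedin U, 5.93 and the floor.

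Among receptors for lipid mediators, Ptger3 had the widest difference. It encodes the EP3 receptor for prostaglandin E2, which couples mainly to Gi, and had a log2 signal of 6.13 in Venus High cells (70.2 on the linear scale) and the floor in Venus Low cells. This difference of at least 7.02-fold lies wholly below a signal of 100, and another probe set of Ptger3 was at the floor in both populations. Ptger1 and Ptgfr, the receptor for prostaglandin F2 alpha, were at the floor in both populations, and Ptger2 and Ptger4 are not analysed here. Lpar6, a receptor for lysophosphatidic acid, was measured well in both populations, with 7.86 and 7.53. Its 1.25-fold difference is close to the SD between probe sets and turns to -0.33 on the log2 scale after median centring and -0.34 after quantile normalization, so it has no settled direction. Lpar1 had 3.49 in both populations, and Lpar2, Lpar3 and Lpar4 were at the floor. Of the sphingosine 1-phosphate receptors, S1pr4 had 3.76 and 3.42 and S1pr3 and S1pr5 were at the floor, while S1pr1 and S1pr2 are not analysed here.

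Of 22 listed genes that make, carry or clear these lipids, 13 had a value and 3 reached a signal of 100. All 3 were higher in Venus High cells by 4-fold or more, as were 8.58% of all genes that reached it. The 3 lay below a signal of 100 in Venus Low cells and passed the minimum only through Venus High cells, so the count only describes them. Slco2a1, which encodes the carrier that takes prostaglandins up into cells, was 17.0-fold higher (10.31 and 6.22 on the log2 scale, a difference of 3.66 against a floor of 100), and the differences of its 3 further probe sets were 3.60, at least 3.79 and at least 2.93. Sphk1, the kinase that makes sphingosine 1-phosphate, was 15.6-fold higher (9.44 and 5.47, 2.79 against a floor of 100), and by at least 1.16 on another probe set. Plpp1, a phosphatase of lysophosphatidic acid and related lipids, was 5.13-fold higher, with 6.82 and 4.46 (0.18 against a floor of 100). Abcc4, which exports prostaglandins and cyclic AMP, had 6.12 in Venus High cells and the floor in Venus Low cells. Sphk2, the other sphingosine kinase, had 5.30 and 5.26. Both cyclooxygenase genes (Ptgs1 and Ptgs2) are not analysed here.

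**Figure D3:**
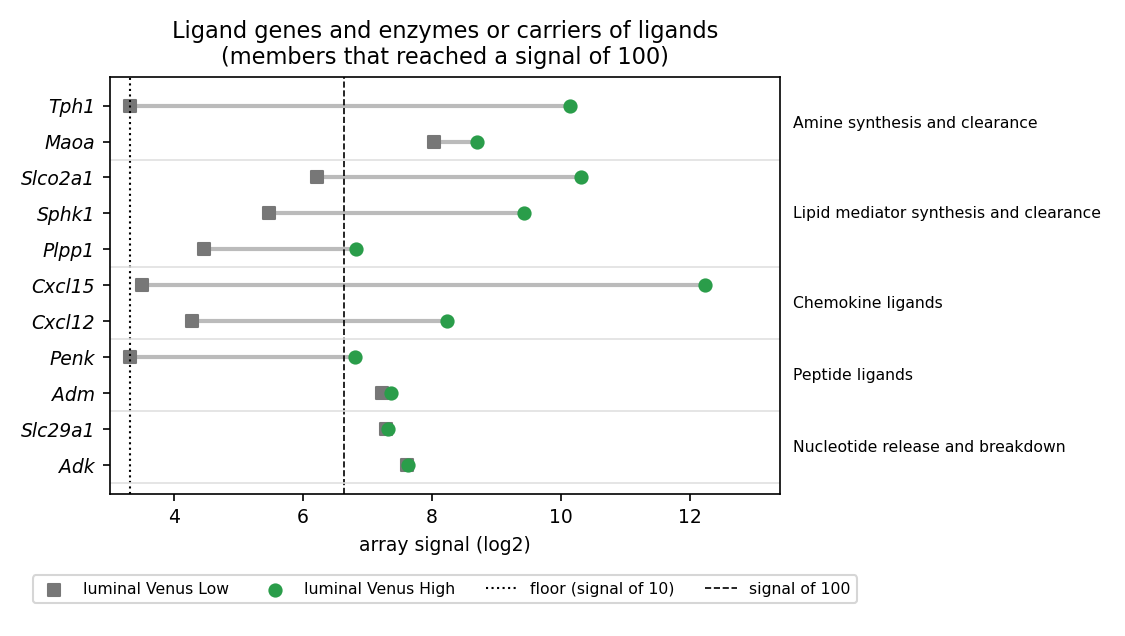
Log2 array signal (horizontal axis) with Venus Low cells as grey squares and Venus High cells as green circles, each from 1 array, of the genes of 5 ligand lists that reached a signal of 100. The dotted line marks the floor and the dashed line a signal of 100. Tph1 and Penk lie at the floor in Venus Low cells, Slco2a1, Sphk1, Cxcl15 and Cxcl12 are spaced by over 3 log2 units, and for Adm, Slc29a1 and Adk the symbols overlap.

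Chemokine receptors, most of which are known from leukocytes, were at the floor in both populations for 10 of 11 genes with a value, Ccr1, Ccr2, Ccr7, Cxcr2, Cxcr5 and Cxcr6 among them. Ccr10 had 3.66 in Venus High cells and the floor in Venus Low cells. Of 25 chemokine ligand genes, 15 had a value, 2 reached a signal of 100 and both were higher in Venus High cells by 4-fold or more. Among all genes that reached it, 8.58% were. Both ligand genes lay below a signal of 100 in Venus Low cells and passed the minimum only through Venus High cells, so the count only describes them. Cxcl12, the ligand of Cxcr4, was 15.4-fold higher, with 8.23 and 4.28 (1.59 log2 units against a floor of 100, and so below 4-fold), and differed by 2.11 on a further probe set, while another was at the floor in both populations. Cxcl15, a chemokine first known from lung epithelium, was 428-fold higher, with 12.24 and 3.50 (5.60 against a floor of 100). Cxcr4 is not analysed here.

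The adhesion receptors, which carry long extracellular parts that bind other cells or matrix, were 6 of the 25 receptors above the floor. Adgre5, known as CD97, which binds CD55, was 3.82-fold higher in Venus High cells at log2 signals of 7.93 and 5.99 (1.28 against a floor of 100, 1.27 after median centring). Adgra3 was 1.97-fold higher, with 8.24 and 7.26, just under 2-fold, and both further probe sets were at the floor in both populations. Adgrg1, known as GPR56, had 6.18 and 4.70, and a second probe set 5.68 and 4.69. Adgrl1, a latrophilin, had 6.03 and 5.18, and Adgrg3 5.65 and 5.54, which turns to -0.55 after median centring. Adgrl4, known from endothelium, had 3.92 in Venus High cells on 1 probe set and the floor in Venus Low cells, beside an endothelial list that also summed higher in Venus High cells, and the part of endothelial cells in this was not tested. The other 12, Adgrb1, Adgrf5 and Adgrl2 among them, were at the floor in both populations.

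Of the 50 numbered receptors, Gpr155 alone reached a signal of 100. The gene, whose promoter window is given above, encodes a lysosomal membrane protein that senses cholesterol, and its Venus High signal was 11.5-fold higher at log2 signals of 7.32 and 3.79 on 1 probe set. Against a floor of 100 the difference was 0.67, and so below 4-fold. Gpr155 was counted as a receptor by its symbol, and its coupling to G proteins was not tested. Gpr146 had 5.54 and 4.58, with a second probe set at 5.52 and 4.28. Gpr3, a receptor that raises cyclic AMP without a known ligand being needed, had 5.83 and 5.79, so the populations lay closer than the SD between probe sets, and the difference turns to -0.62 after median centring. Gpr162 had 4.50 in Venus High cells, Gpr39, a zinc receptor, 4.19, and Gpr20 4.03, with Venus Low values at or within 0.10 of the floor. Gpr19 and Gpr45 lay within 0.10 of the floor in Venus High cells. Of the class C receptors other than Casr, Gprc5c had 7.43 and 6.81, a 1.54-fold difference that is -0.03 after median centring, and Gprc5d and Gprc6a were at the floor.

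**Figure D4:**
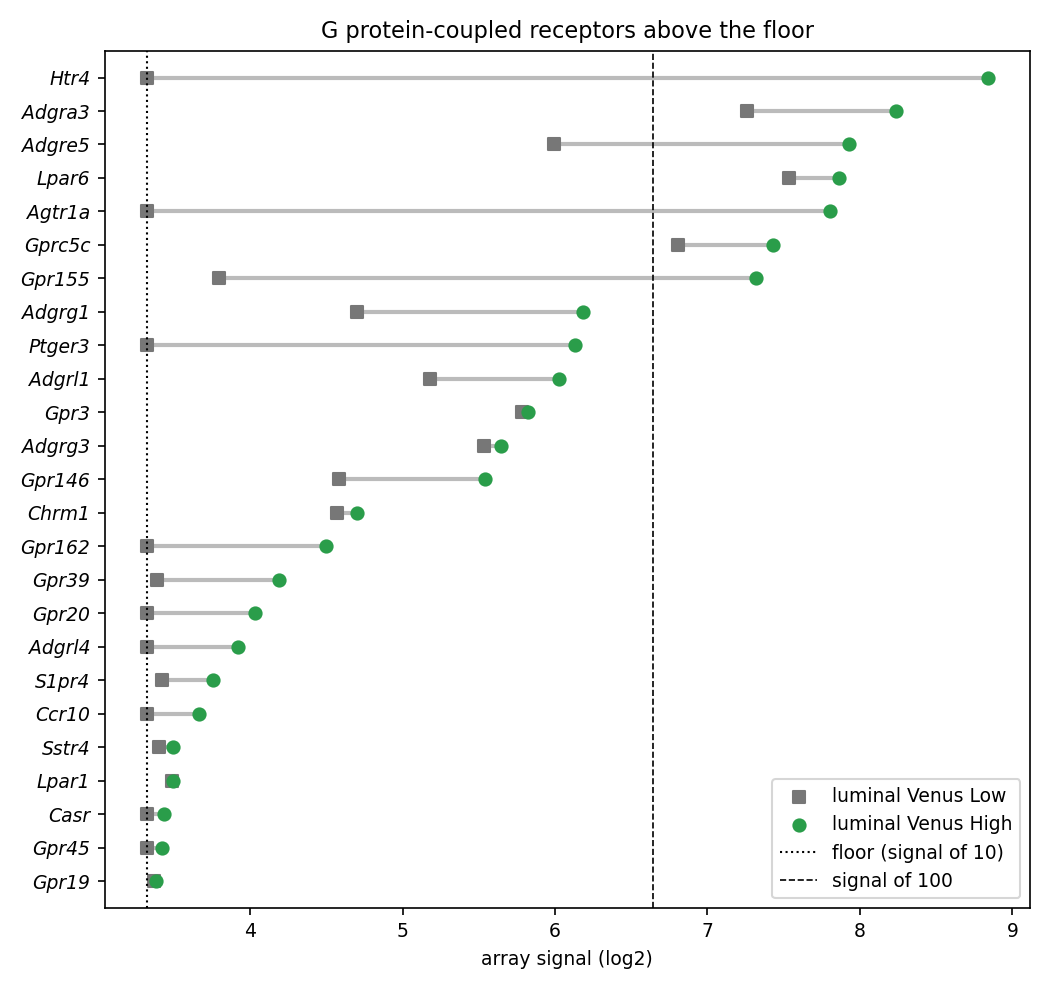
Log2 array signal (horizontal axis) with Venus Low cells as grey squares and Venus High cells as green circles, each from 1 array, of the 25 receptors above the floor on at least 1 array, listed by their Venus High signal. The dotted line marks the floor and the dashed line a signal of 100. Htr4, Agtr1a and Ptger3 lie at the floor in Venus Low cells and span at least 2.81 log2 units, while the pairs of Gpr3, Adgrg3 and Chrm1 nearly overlap.

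The 9 genes whose symbols fit the stems but that encode other proteins were kept out of these counts. Ptgfrn, an immunoglobulin superfamily membrane protein, was 4.56-fold higher in Venus High cells at log2 signals of 9.32 and 7.13, and the log2 difference of 2.19 fell to 1.53 after median centring, and so below 4-fold. Its other probe set had 4.33 and 3.79, and the median of both gave 1.36. Gpr137b-ps, a relative of the lysosomal protein gene Gpr137b, had 7.18 and 5.53, and Gpr137b itself 6.10 and 4.09. As close copies, these 2 may share probes, and their values are uncertain. Gpr137 had 6.41 and 5.23. The Golgi membrane protein genes Gpr107 and Gpr108 had 6.65 and 6.53 and 7.53 and 7.03, differences that turn negative after median centring (-0.55 and -0.15). Further probe sets of Gpr107 differed by 0.81 and 0.12, and another was at the floor in both populations. Htr3a and Htr3b, subunits of a serotonin-gated ion channel, were at the floor in both populations.

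G proteins carry the signal of the receptors into the cell. Of 13 alpha subunit genes, 11 had a value and 4 reached a signal of 100, none at least 2-fold higher on the probe set with the highest mean. Among all genes that reached it, 21.6% were at least 2-fold higher. Gna11, of the Gq class, had 9.07 and 8.14, Gna12 7.63 and 6.89, Gna13 9.62 and 8.99, and Gnai2 10.58 and 9.97. After median centring Gna13 (-0.03) and Gnai2 (-0.05) turned negative on these probe sets. The other Gnai2 probe set differed by 1.04, and further Gna13 probe sets by 0.54 to 1.16. Differences above 0.66 stay positive after centring, so the sign after centring depends on the probe set for these genes. Gnas, which encodes the alpha subunit of Gs, and Gnaq were at the floor in both populations for the probe sets analysed, and other probe sets of these genes are not analysed here. Of 15 beta and gamma subunit genes, 5 of the 12 with a value reached a signal of 100. Gng12 was 6.98-fold higher in Venus High cells at log2 signals of 11.54 and 8.74, and differed by 3.00 on its other probe set. Gng10 was 2.68-fold and Gnb5 2.48-fold higher, while Gnb1 and Gnb2 differed by 0.32 and 0.37 and were below 0 after median centring.

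Among genes that regulate G proteins or act after them, a few differed by at least 4-fold. Among all genes that reached a signal of 100, 8.58% did. Of 18 regulators of G protein signaling with a value, 4 reached a signal of 100, and Gpsm3 was 5.02-fold higher (7.81 and 5.48, 1.16 log2 units against a floor of 100). Rgs2 had 10.10 and 9.24 and Rgs3 7.76 and 6.89. The receptor kinase Grk3 was 2.44-fold higher, with differences of 1.26 and 1.74 on its other probe sets. Grk6 was 1.71-fold higher, but a further probe set gave a difference of 0.05 and the median of its 3 probe sets 0.05. In the Gq branch, Prkce, a protein kinase C, was 4.39-fold higher (6.95 and 4.81, 0.30 against a floor of 100), and the median of its 4 probe sets gave 1.20, below 4-fold. The phospholipase C genes Plcb4 and Plcb3 were 2.67-fold and 2.07-fold higher, and for Plcb4 the median of probe sets gave 0.48. In the cyclic AMP branch, Prkar2b, a regulatory subunit of protein kinase A, was 3.15-fold higher (7.39 and 5.74). The catalytic subunit gene Prkaca (9.15 and 8.82), Prkar1a (10.17 and 9.99) and Creb1 (6.91 and 6.59) differed by about the SD between probe sets or less. They were below 0 after median centring. The other Prkar1a probe set differed by 0.55. Of the accessory proteins, Reep6 was 8.05-fold higher (7.85 and 4.84, 1.20 against a floor of 100), Rtp4 had 7.85 and 7.83 and Reep3 7.51 and 7.38 (-0.63 and -0.53 after median centring), and Ramp1, a partner of the calcitonin receptor family, had 3.55 in Venus High cells.

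**Figure D5:**
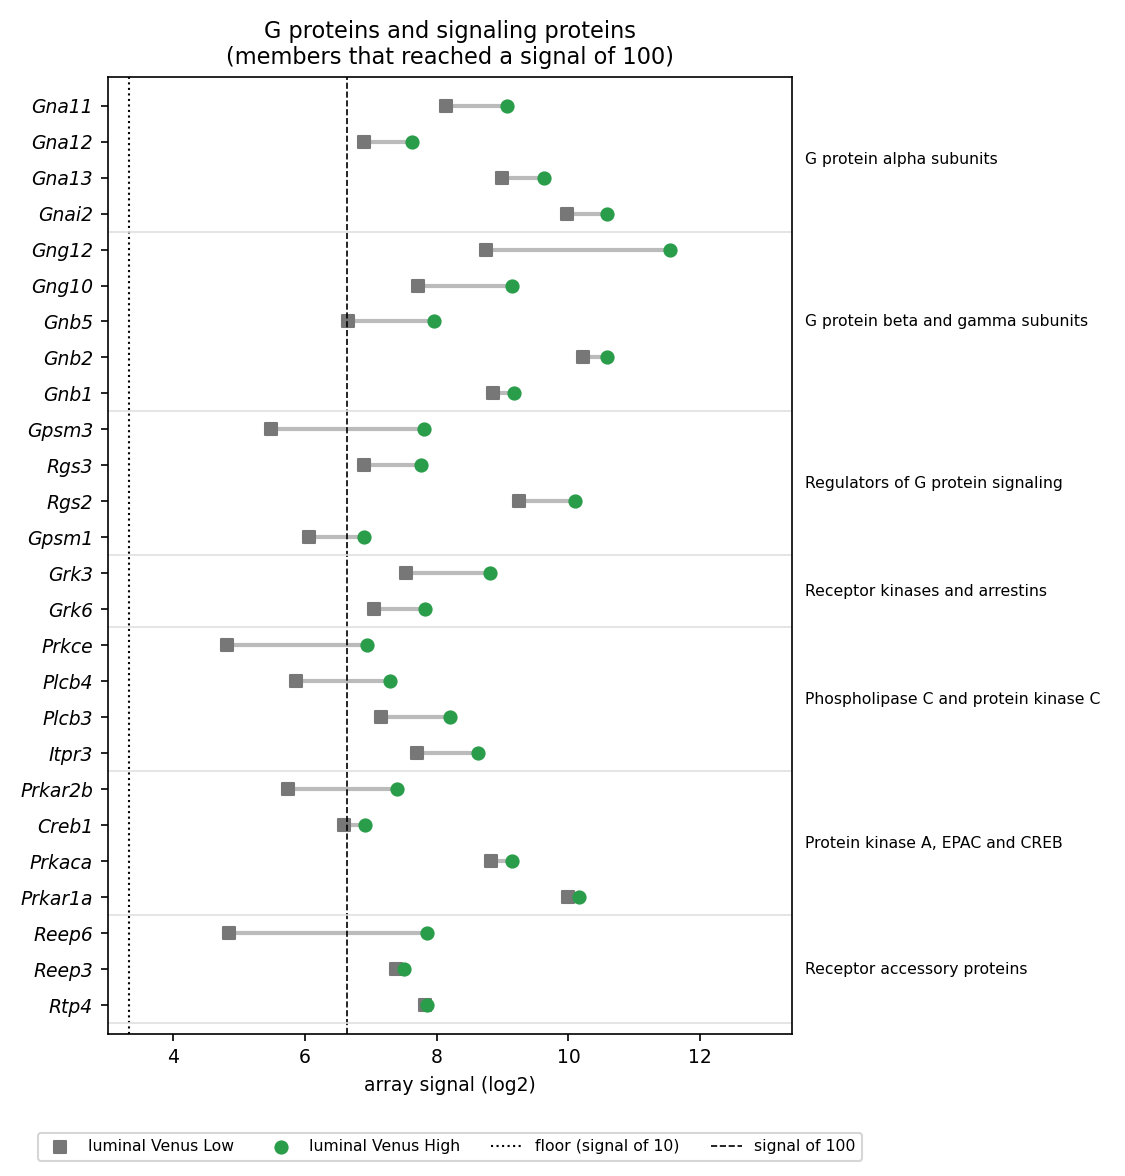
Log2 array signal (horizontal axis) with Venus Low cells as grey squares and Venus High cells as green circles, each from 1 array, of members of 7 signaling lists that reached a signal of 100. The dotted line marks the floor and the dashed line a signal of 100. Gng12, Gpsm3, Prkce and Reep6 show the 4 gaps of over 2 log2 units, and the symbols of Prkar1a, Reep3 and Rtp4 overlap.

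In all the ligand and signaling lists together, 177 of 258 genes had a value, 45 reached a signal of 100 and 13 of these were higher in Venus High cells by 4-fold or more. This is 28.9%, where 8.58% of all genes that reached the signal were, and the median log2 difference of the 45 was 0.86. Against a floor of 100, 6 genes were at least 4-fold higher. Among the 13, only Gng12 and Tmprss2 also exceeded a signal of 100 in Venus Low cells. The others passed the minimum only through the population in which they were high. The lists were also written with some of these values known, so the share describes the lists and supports nothing further.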

How the data were processed

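Luminal Venus High and luminal Venus Low mammary cells were compared on 1 array each. The submitters' processing notes name MAS5, and the deposited table holds log2 signals with a floor at 10, made by the authors in BRB Array with a normalization factor whose value the sources used here do not give. The table was held as 29338 probe sets, and 0 columns of other samples were present. Gene names came from the platform annotation (22223 with 1 symbol, 602 with several, 6513 not listed), and 22060 of the 22223 matched a gene of the RefSeq table of GRCm38.p6. The probe set with the highest mean represented a gene, and a gene was counted if its signal exceeded 100 on at least 1 array and its difference reached 4-fold. No test was possible with 1 array per population. The counting was tested on simulated data in which the raised genes had a Venus Low signal of at least 100. The simulation did not cover genes at or near the floor in Venus Low cells, such as Htr4, Agtr1a and Gpr155. Precision is limited by the number of arrays and by the floor.

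Receptors and lists were chosen with earlier results of these data known. The genes named were receptors that differed by at least 2-fold and reached a signal of 100, up to 3 others of each receptor class by signal, the widest differences (up to 4) and highest signals (up to 2) of each list, and ligands, partners or enzymes of a receptor described. Receptors named at the floor, or near it beyond those 3, were added for completeness. Alternatives were median centring, quantile normalization, floors of 32 and 100, other choices of probe set, signal minimums of 50, 200 and none, thresholds of 2-fold and 8-fold, and all matching symbols. Promoters were taken from RefSeq. Python 3.11.15, numpy 2.4.6, pandas 2.3.3 and matplotlib 3.10.9 were used.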

Additional observations from a re-analysis of the deposited data

How the results depend on the processing

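Htr4, Agtr1a and Gpr155 were the receptors at least 4-fold higher under median centring, quantile normalization and a floor at 32. The count of 3 became 1 (Htr4) with the floor at 100, 2 (without Htr4) with the median of probe sets, 2 (without Gpr155) at a signal minimum of 200, and 4 (with Ptger3) at 50 or no minimum. Of all genes, 330 fell to 170 with the floor at 100, to 196 after quantile normalization and to 204 after median centring, and were 831 at 2-fold and 183 at 8-fold. The 7 receptors that reached a signal of 100 became 12 at a minimum of 50, 150 with no minimum and 12 with all matching symbols. Their median of 1.93 became 1.27 after centring, 1.24 after quantile normalization, 0.98 with the floor at 100, 2.25 without _x_at, _s_at and _a_at probe sets, 1.23 at a minimum of 50, 0 with no minimum and 1.53 with all matching symbols. The 13 genes of the signaling and ligand lists at least 4-fold higher became 6 with the floor at 100 and 8 after quantile normalization, and their median of 0.86 became 0.12 after centring, 0.067 after quantile normalization and 0.017 with no minimum. Median centring lowers every difference by 0.66, so of the 62 named genes for which it was tabulated 23 fell below 0 after it and 24 after quantile normalization, and other named genes with smaller differences would too. The table used here holds no probe set lower in Venus High cells. The median used for centring is therefore higher in Venus High cells by construction, and centring on it may take away too much. Quantile normalization of this table has the same limit. No paired analysis was possible because each population has 1 array.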

Other observations

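Proteases that act on receptors, and their inhibitors, had a value for 12 of 16 listed genes, and 8 reached a signal of 100. Tmprss2, a membrane serine protease, had log2 signals of 11.93 (Venus High) and 8.76 (Venus Low), a difference of 3.17, and the related Tmprss4 11.4-fold (6.99 and 3.47, or 0.35 log2 units against a floor of 100). F3, tissue factor, which starts the clotting cascade, had 11.97 and 11.18. Spint2, an inhibitor of membrane proteases, had 12.07 and 12.06 and fell below 0 after median centring (-0.64), as did Spint1 and Prss8. F2rl2, the protease-activated receptor with a value, was at the floor on both arrays.

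Enzymes that make or break second messengers and extracellular nucleotides lay mostly below a signal of 100. Of 10 adenylyl cyclase genes 7 had a value, 6 at the floor on both arrays, and Adcy3 had 5.04 and 4.13. Of 18 phosphodiesterase genes 13 had a value and none reached a signal of 100. Pde5a, which breaks down cyclic GMP, lay just under it, with 6.64 and 4.21, and was named after its value was seen. Among genes of nucleotide release and breakdown, Nt5e, which makes adenosine, had 5.06 and 3.89, while Adk, adenosine kinase, had 7.63 and 7.62 and Slc29a1, a nucleoside carrier, 7.32 and 7.28, both negative after median centring (-0.64 and -0.62).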
